A study of Mus musculus with 9 samples.

Results

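The genes described here encode the nuclear subunits of oxidative phosphorylation, and were taken by symbol from a matrix of RNA sequencing values for 54838 mouse genes. The rule took every symbol that starts like a subunit of complex I to V (Ndufa, Ndufb, Ndufc, Ndufs, Ndufv, Uqcr, Cox4i, Cox5, Cox6, Cox7, Cox8, Atp5) with Sdha, Sdhb, Sdhc, Sdhd, Cyc1 and Cycs. It dropped 9 symbols that hold "-ps" and 8 assembly factor symbols that hold "Ndufaf". This left 92 entries under 91 symbols, since Atp5o is listed under a pair of identifiers. Complex I has 39 entries, complex II 4, complex III 9, complex IV 21 and complex V 18, with Cycs as the carrier between complexes III and IV. Ndufa4 and Ndufa4l2 were counted with complex IV, where the Ndufa4 protein is a subunit. Cox7a2l and Atp5s fit the rule by symbol but encode a supercomplex factor and a coupling factor rather than subunits. Ndufa11b, Ndufb4c, Ndufs6b and Cox6c2 are annotated as processed pseudogenes, so their reads cannot be told with confidence from those of their parent genes.

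Total RNA came from corona radiata cells, the granulosa cells that sit next to the oocyte, of adult mice given PMSG and hCG, the hormones used to drive follicle growth and ovulation. The 3 genotypes had 3 libraries each. Transgenic libraries came from DKO LXR TG-AMH-LXRb animals, which carry both the liver X receptor double knockout and a transgene. The titles name this transgene AMH-LXRb. DKO LXR libraries came from the double knockout without the transgene, and WT libraries from wild type. Liver X receptors are nuclear receptors for oxysterols. The labels do not say which promoter drives the transgene or which parts of the receptor genes are deleted. Nothing states that the libraries came from different animals, so the p-values speak only for variation among these libraries, and that variation may be technical.

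Oxidative phosphorylation passes electrons from NADH (complex I) and succinate (complex II) through complex III and cytochrome c to oxygen at complex IV. Complexes I, III and IV pump protons across the inner mitochondrial membrane, and complex V makes ATP from the gradient. Core subunits include those with the cofactors and catalytic sites, while many accessory subunits are small single-pass or peripheral proteins that hold the complexes together. Cumulus cells are known for a largely glycolytic metabolism that feeds pyruvate to the oocyte. The catalytic core of complex IV and the membrane core of complex I are encoded by mitochondrial DNA. The 37 mitochondrial genes of the matrix are all listed at 0, so only the nuclear part of each complex is described.

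Values are RPKM (reads per kilobase of exon, scaled to library size). Log2 fold changes are on the log2(RPKM + 1) scale with their standard error, from limma over 16422 genes with Benjamini-Hochberg adjustment, and a gene passed at an adjusted p below 0.05. Reads in genes, worked back from the RPKM values, ranged from 29822412 to 44049966 per library. The knocked-out gene Nr1h2, which encodes LXRb, measured 4.83 to 6.70 RPKM in transgenic, 2.85 to 3.57 in DKO LXR and 39.7 to 45.7 in WT libraries. Transgenic libraries thus lay above DKO LXR and far below WT. Whether their Nr1h2 values include reads of the transgene was not tested. The other receptor gene, Nr1h3, measured 0.395 to 0.819 RPKM in transgenic, 0.713 to 1.08 in DKO LXR and 3.50 to 5.72 in WT libraries. Markers of granulosa and cumulus cells (18 genes) summed to 2261.8 to 2478.9 RPKM in transgenic, 2329.8 to 2811.2 RPKM in DKO LXR and 2791.6 to 3270.5 RPKM in WT libraries. Some libraries stood apart in RNA of other cells. Oocyte markers summed to 633.3 RPKM in DKO LXR 1 and 1265.9 RPKM in WT 1, against at most 82.6 RPKM in any other library. Red cell markers summed to 9881.0 RPKM in WT 3 and to at most 971.3 RPKM elsewhere.

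The promoters of these genes are a textbook target of nuclear respiratory factor 1 (NRF1) and of the ETS factor GABP, so their sequences were read beside the expression values. RefSeq promoters (GRCm38.p6, 250 bases before the gene's start) matched 70 members. All motifs were searched on both strands. The NRF1 core, GCGC and TGCGC with 1 base of any kind between them, was present in 13 of the 70 (18.6%) and in 4.23% of all 27025 promoters. The ETS motif CCGGAAG was present in 17.1% of member promoters and 7.83% of all promoters, and overlapped another of the motifs in 1 member promoter. The cyclic AMP response element TGACGTCA was present in 7.14% of member promoters and 1.77% of all. The GC box GGGCGG was present in 37.1% and 35.4%, with an overlap in 1 member promoter. The liver X receptor DR4 element was searched only in its exact form, the letters AGGTCA repeated after 4 bases of any kind. It was found in 0 of the 70 and in 4 of all 27025 promoters (0.0148%). A form this rare would be missing from most sets of 70 promoters, so the 0 does not show that such elements are absent. Forms with other letters were not searched. Of 13 promoters with the NRF1 core, 3 have a 50-base window around it that touches no annotated exon. These windows show what the core looks like in place, with its 10 letters in capitals, all 5′ to 3′ on the minus strand. All 3 hold the core as its reverse complement, so that the letters given above read on the opposite strand. They are Atp5h at chr11:115420031-115420080, Ndufb4 at chr16:37654530-37654579 and Ndufs5 at chr4:123718255-123718304.
Atp5h: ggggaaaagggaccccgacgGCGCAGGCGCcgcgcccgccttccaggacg
Ndufb4: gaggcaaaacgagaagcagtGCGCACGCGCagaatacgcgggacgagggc
Ndufs5: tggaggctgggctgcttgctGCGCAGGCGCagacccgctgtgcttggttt
Ndufb4 and Ndufs5 passed the test as lower in DKO LXR than in WT, and Atp5h did not (-0.30 ± 0.11, adjusted p = 0.123). Among members that passed as lower, 4 of 24 with a promoter sequence (16.7%) held the NRF1 core, against 8 of 43 (18.6%) among those that did not pass. These shares were close to each other, and a match is a description of the sequence, not a bound site.

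In the double knockout, transcripts of many small accessory subunits of the respiratory chain were less abundant than in WT. Among core subunits 2 of 20 fell, a share of 10% that lies near the 7.12% of all genes, and 1 rose. Of 87 members that passed the filter on low values, 32 fell in DKO LXR and 1, Sdha, rose (background: 10.6% of all 16422 genes passed, 7.12% as lower and 3.47% as higher). The falling members were 36.8% of those tested. The median log2 fold change was -0.31 over the members and 0.02 over all genes tested. A negative fold change was found for 85.1% of members and 47.5% of all genes. In 47 members every DKO LXR library lay below every WT library (54.0% of members, 15.9% of all genes), and in 3 every DKO LXR library lay above (3.45%, against 13.1%). The 5 members not tested were Cox6a2, Cox7b2, Cox8b, Cox8c and the second Atp5o entry.

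Accessory and core subunits differed in how many passed. Of 56 accessory members, 26 fell in DKO LXR (46.4%, against 7.12% of all genes), none rose and the median was -0.40. Of 20 core members, 2 fell (Sdhc and Atp5e, 10%), 1 rose (Sdha) and the median was -0.03. Here core means the 7 conserved nuclear subunits of complex I and the 4 subunits of complex II. It also takes in the redox subunits and large core proteins of complex III (4) and the head and central stalk subunits of complex V (5). The rotor ring genes Atp5g1, Atp5g2 and Atp5g3 and the peripheral stalk genes of complex V were counted as accessory. The sum of RPKM over accessory members was 2012.3 to 2251.2 in transgenic libraries, 1863.0 to 2152.6 in DKO LXR libraries and 2429.2 to 2915.5 in WT libraries. The knockout genotypes thus lay below WT without overlap. The sum over core members was 1824.6 to 1904.7 RPKM in transgenic, 1803.6 to 1998.4 RPKM in DKO LXR and 1782.4 to 2008.3 RPKM in WT libraries, and these ranges overlapped. In RNA from a mixed sample, fewer cells of a type and less RNA per cell cannot be told apart.

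Transgenic libraries gave a like picture when set against the same WT libraries. Of 87 members, 25 fell (28.7%) and 1, again Sdha, rose, where 11.9% of all genes passed (6.72% as lower, 5.15% as higher). The median was -0.21 over the members and 0.02 over all genes, and 78.2% of members had a negative fold change against 48% of all genes. In 40 members every transgenic library lay below every WT library (46% of members, 18.9% of all genes), and in 4 every one lay above (4.6%, against 16.8%). Both comparisons use the 3 WT libraries, so their counts are not independent of each other.

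Between the knockout genotypes, transgenic minus DKO LXR, 0 of 87 members passed, where 0.116% of all genes did (0.0609% as lower, 0.0548% as higher). At an unadjusted p below 0.05 there were 5 members (5.75%, against 8.1% of all genes), and limma-voom on the worked-back reads also called 0. The 5 were Ndufa6, Ndufs5, Ndufb4c, Atp5g2 and Atp5k, all higher in the transgenic libraries. The largest of these differences was that of Atp5k (0.43 ± 0.17), followed by Ndufb4c (0.38 ± 0.12) and Ndufa6 (0.32 ± 0.08). The median over the members was 0.08, against 0.01 over all genes. In 12 members every transgenic library lay above every DKO LXR library (13.8%, against 11.3% of all genes), and in 0 every one lay below (7.05% of all genes).

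**Figure D1:**
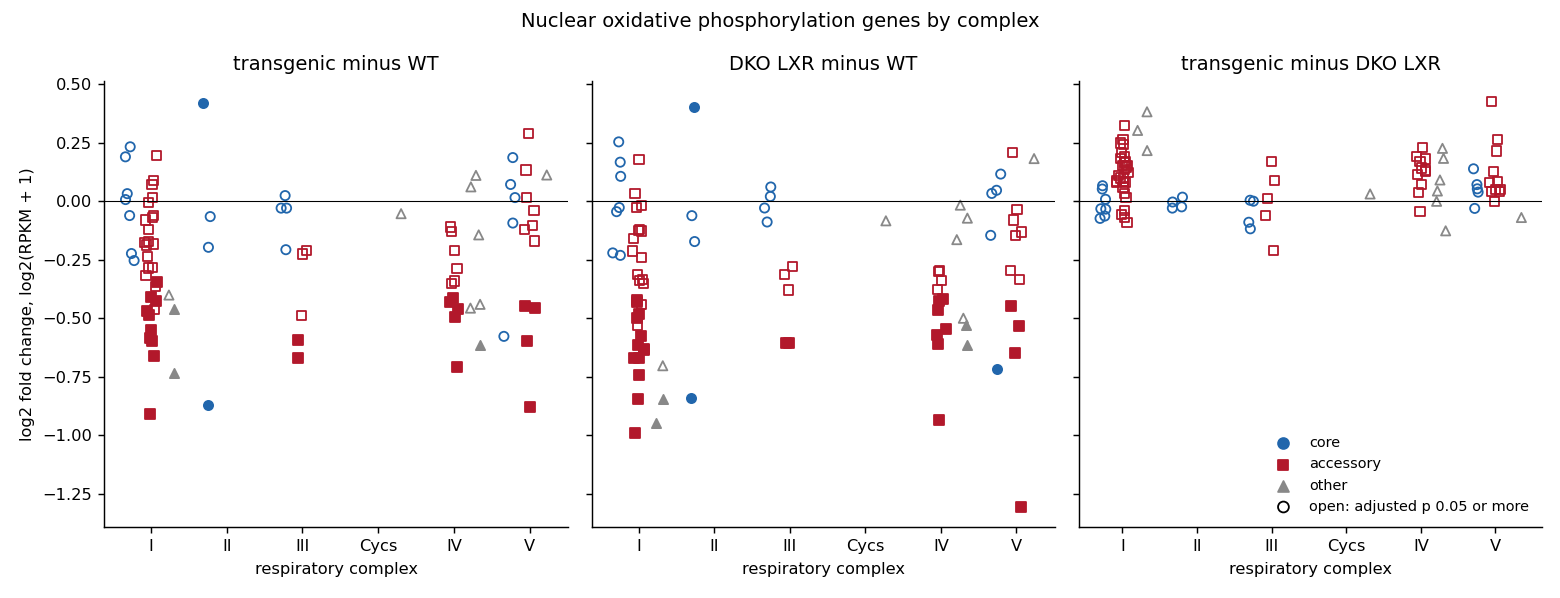
Log2 fold change of each tested member on the log2(RPKM + 1) scale, by respiratory complex, for transgenic minus WT, DKO LXR minus WT and transgenic minus DKO LXR; filled points passed an adjusted p of 0.05. Accessory subunits (squares) lie mostly below 0 in both comparisons with WT, where 25 and 32 members fell, while core subunits (circles) lie around 0, and no point is filled between the knockout genotypes.

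Complex I, the NADH dehydrogenase, had the largest number of falling members. In DKO LXR against WT 15 of 39 fell (38.5%, against 7.12% of all genes) and none rose, with a median of -0.34. In transgenic against WT 12 of 39 fell (30.8%, against 6.72% of all genes), with a median of -0.23. None of the 7 core subunits passed in either comparison, and their median was -0.03 in DKO LXR against WT. Of 29 accessory subunits, 13 fell in DKO LXR against WT (44.8%) and 10 in transgenic against WT (34.5%). The sum over complex I was 1311.7 to 1410.7 RPKM in transgenic, 1207.8 to 1384.0 RPKM in DKO LXR and 1464.3 to 1792.3 RPKM in WT libraries, with WT above the others without overlap.

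The core subunit Ndufv1, which binds NADH and the flavin, measured 60.6, 66.7 and 61.8 RPKM in transgenic 1 to 3, 74.0, 62.3 and 58.3 in DKO LXR 1 to 3 and 63.0, 61.1 and 73.9 in WT 1 to 3. The groups overlapped and the difference did not pass (DKO LXR minus WT -0.03 ± 0.11, adjusted p = 0.908). Ndufs1, the largest iron-sulfur subunit, measured 14.0, 14.5 and 13.5 RPKM in transgenic 1 to 3, 13.9, 14.2 and 15.9 in DKO LXR 1 to 3 and 11.5, 12.5 and 12.5 in WT 1 to 3. It was the lone core subunit of complex I whose DKO LXR libraries all lay above the WT libraries, but it did not pass (0.25 ± 0.08, adjusted p = 0.0783).

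Ndufa12 (mm10 chromosome 10, 94198720 to 94221443) encodes an accessory subunit of the peripheral arm and measured 18.0, 16.5 and 17.9 RPKM in transgenic 1 to 3, 18.0, 16.9 and 14.6 in DKO LXR 1 to 3 and 29.7, 29.4 and 43.4 in WT 1 to 3. Both knockout genotypes lay below WT without overlap, and WT 3 stood above the other WT libraries. Ndufa12 fell in transgenic (-0.91 ± 0.15, adjusted p = 0.00872) and in DKO LXR (-0.99 ± 0.15, adjusted p = 0.00558) libraries against WT. Ndufa5 (mm10 chromosome 6, 24518666 to 24528013), another peripheral arm subunit, measured 17.3, 14.9 and 14.9 RPKM in transgenic 1 to 3, 14.2, 15.1 and 14.9 in DKO LXR 1 to 3 and 24.8, 24.2 and 27.0 in WT 1 to 3. The 6 knockout libraries spanned a narrow range well below WT. Ndufa5 had the smallest adjusted p of the members in both comparisons (transgenic minus WT -0.66 ± 0.08, adjusted p = 0.00285; DKO LXR minus WT -0.74 ± 0.08, adjusted p = 0.0016). Ndufs5, a subunit on the intermembrane side, measured 31.1, 27.2 and 27.6 RPKM in transgenic 1 to 3, 25.7, 25.3 and 22.9 in DKO LXR 1 to 3 and 38.5, 38.3 and 39.8 in WT 1 to 3. All 3 groups were separate, with DKO LXR lowest and WT highest. Ndufs5 fell in transgenic (-0.43 ± 0.08, adjusted p = 0.0143) and DKO LXR (-0.64 ± 0.08, adjusted p = 0.00266) libraries against WT, although the step between the knockout genotypes did not pass (0.21 ± 0.08, adjusted p = 0.549). The transgenic call of Ndufs5 was lost without transgenic 2 or transgenic 3 (adjusted p up to 0.0594).

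Ndufc1, a small membrane subunit, measured 12.1, 9.45 and 10.3 RPKM in transgenic 1 to 3, 9.98, 9.20 and 9.25 in DKO LXR 1 to 3 and 14.6, 15.4 and 15.6 in WT 1 to 3. Every knockout library lay below every WT library. Ndufc1 fell in transgenic (-0.48 ± 0.10, adjusted p = 0.0173) and DKO LXR (-0.63 ± 0.10, adjusted p = 0.006) libraries against WT. Leaving out transgenic 2, transgenic 3 or WT 2 ended the transgenic call (adjusted p up to 0.0656). Among the annotated copies, Ndufs6b measured 15.5, 10.9 and 14.3 RPKM in transgenic 1 to 3, 11.6, 12.2 and 10.6 in DKO LXR 1 to 3 and 22.5, 20.8 and 25.9 in WT 1 to 3. Its knockout libraries lay below WT without overlap (transgenic minus WT -0.73 ± 0.13, adjusted p = 0.0134; DKO LXR minus WT -0.95 ± 0.13, adjusted p = 0.00437). Ndufb4c measured 17.9, 13.9 and 18.7 RPKM in transgenic 1 to 3, 11.7, 12.2 and 14.0 in DKO LXR 1 to 3 and 23.5, 21.6 and 25.3 in WT 1 to 3. It passed against WT in transgenic (-0.46 ± 0.12, adjusted p = 0.0447) and in DKO LXR (-0.84 ± 0.12, adjusted p = 0.00505) libraries, and the transgenic call was lost in 8 of 9 omissions of 1 library (adjusted p up to 0.118). The parent genes Ndufs6 and Ndufb4 gave -0.33 ± 0.13, adjusted p = 0.147 and -0.50 ± 0.11, adjusted p = 0.0253 in DKO LXR against WT.

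The other accessory subunits of complex I that fell in DKO LXR were Ndufa1, Ndufa2, Ndufa3, Ndufa13, Ndufb4, Ndufb6, Ndufb7, Ndufb11 and Ndufc2, with log2 fold changes between -0.85 (Ndufa3) and -0.42 (Ndufb6). Ndufa13, also known as a cell death regulator, gave -0.67 ± 0.12, adjusted p = 0.0108. Accessory subunits that did not pass included Ndufa9 (0.18 ± 0.09, adjusted p = 0.247), which lies at the joint of the arms, the acyl carrier protein gene Ndufab1 (0.03 ± 0.10, adjusted p = 0.874) and Ndufs4 (-0.02 ± 0.08, adjusted p = 0.92). These gave values near 0 or above it, unlike most of the class. Of the 29 accessory subunits, 27 had a negative fold change (93.1%, against 47.5% of all genes). Ndufa7 (-0.53 ± 0.15, adjusted p = 0.0534) and Ndufb10 (-0.44 ± 0.15, adjusted p = 0.097) were among the negative ones that did not pass.

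Complex II, succinate dehydrogenase, is wholly encoded in the nucleus and divided between its subunits. The flavoprotein gene Sdha rose, the membrane anchor gene Sdhc fell, and Sdhb and Sdhd did not pass. Sdha (mm10 chromosome 13, 74322254 to 74350280) measured 93.8, 97.0 and 96.3 RPKM in transgenic 1 to 3, 87.0, 90.9 and 107 in DKO LXR 1 to 3 and 65.4, 71.3 and 77.8 in WT 1 to 3. Every knockout library lay above every WT library. It rose in transgenic (0.42 ± 0.10, adjusted p = 0.0304) and DKO LXR (0.40 ± 0.10, adjusted p = 0.0356) libraries against WT, which is close to the threshold: the DKO LXR call was lost in 7 of 9 omissions of 1 library (adjusted p up to 0.113) and the transgenic call in 5 (adjusted p up to 0.0956). Sdhc (mm10 chromosome 1, 171127165 to 171150603), which holds the heme together with Sdhd, measured 12.0, 10.5 and 10.5 RPKM in transgenic 1 to 3, 11.6, 11.0 and 11.2 in DKO LXR 1 to 3 and 19.2, 18.9 and 25.1 in WT 1 to 3. The 6 knockout libraries lay between 10.5 and 12.0 RPKM and WT 3 stood above the other WT libraries. Sdhc fell in transgenic (-0.87 ± 0.11, adjusted p = 0.00333) and DKO LXR (-0.84 ± 0.11, adjusted p = 0.00377) libraries, and both calls held in every omission of 1 library.

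Sdhb, the iron-sulfur subunit, measured 60.2, 59.9 and 60.2 RPKM in transgenic 1 to 3, 63.4, 59.0 and 58.5 in DKO LXR 1 to 3 and 55.3, 61.8 and 72.9 in WT 1 to 3. Its groups overlapped (-0.06 ± 0.10, adjusted p = 0.747 in DKO LXR against WT). Sdhd, the other membrane anchor and the member of complex II with the highest mean, measured 150.1, 153 and 129.8 RPKM in transgenic 1 to 3, 154, 141 and 144 in DKO LXR 1 to 3 and 155, 159 and 183 in WT 1 to 3. Every knockout library lay below every WT library, but the difference did not pass in transgenic (-0.20 ± 0.10, adjusted p = 0.212) or in DKO LXR (-0.17 ± 0.10, adjusted p = 0.308) libraries. Sdhc and Sdhd form 1 membrane domain in the protein, and their transcripts differed in the size of the change. The sum of the 4 complex II genes was 296.8 to 320.7 RPKM in transgenic, 302.0 to 321.0 RPKM in DKO LXR and 294.9 to 359.0 RPKM in WT libraries.

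Complex III, the cytochrome bc1 complex, had 2 of 9 members lower in each comparison with WT, both small accessory subunits, and none higher. This share of 22.2% rests on few genes, where 7.12% of all genes fell in DKO LXR and 6.72% in transgenic libraries. None of the 4 core members passed. The sum over complex III was 514.0 to 534.9 RPKM in transgenic, 501.9 to 579.4 RPKM in DKO LXR and 593.9 to 651.4 RPKM in WT libraries, and WT again did not overlap with the others. The Rieske iron-sulfur gene Uqcrfs1, the highest of complex III, measured 123, 124 and 112 RPKM in transgenic 1 to 3, 121, 123 and 115 in DKO LXR 1 to 3 and 116, 128 and 122 in WT 1 to 3. These libraries were nearly level, with -0.03 ± 0.08 in DKO LXR against WT. Cyc1, the cytochrome c1 gene, measured 60.5, 65.9 and 60.7 RPKM in transgenic 1 to 3, 80.3, 61.5 and 62.8 in DKO LXR 1 to 3 and 66.6, 68.5 and 82.1 in WT 1 to 3. DKO LXR 1 and WT 3 were the highest libraries, and no difference passed (DKO LXR minus WT -0.09 ± 0.12, adjusted p = 0.699). Uqcrc1, a large core protein, measured 68.6, 73.4 and 68.9 RPKM in transgenic 1 to 3, 87.8, 69.9 and 68.2 in DKO LXR 1 to 3 and 68.7, 66.9 and 80.3 in WT 1 to 3. The same libraries were high here (0.06 ± 0.11, adjusted p = 0.787).

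Uqcr10 encodes a small single-pass subunit and measured 54.2, 44.3 and 49.4 RPKM in transgenic 1 to 3, 53.1, 48.5 and 44.9 in DKO LXR 1 to 3 and 79.8, 73.8 and 70.7 in WT 1 to 3. Every knockout library lay below every WT library. Uqcr10 fell in transgenic (-0.59 ± 0.10, adjusted p = 0.00919) and DKO LXR (-0.61 ± 0.10, adjusted p = 0.00777) libraries against WT. Uqcrq, the subunit that binds beside cytochrome b, measured 30.9, 29.8 and 31.9 RPKM in transgenic 1 to 3, 34.4, 32.8 and 29.7 in DKO LXR 1 to 3 and 50.2, 42.8 and 56.9 in WT 1 to 3. Knockout and WT libraries did not overlap. Uqcrq fell in transgenic (-0.67 ± 0.11, adjusted p = 0.00809) and DKO LXR (-0.61 ± 0.11, adjusted p = 0.011) libraries, and the DKO LXR call needed DKO LXR 3 (adjusted p = 0.0514 without it). Uqcrb, another accessory subunit, measured 49.4, 41.7 and 52.4 RPKM in transgenic 1 to 3, 65.7, 48.1 and 53.2 in DKO LXR 1 to 3 and 64.7, 80.9 and 58.0 in WT 1 to 3. Transgenic libraries lay below WT and DKO LXR libraries overlapped with it. It did not pass in transgenic (-0.49 ± 0.16, adjusted p = 0.0744) or DKO LXR (-0.28 ± 0.16, adjusted p = 0.296) libraries.

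Cycs, the electron carrier cytochrome c, is also a trigger of apoptosis when it leaves the mitochondrion. It measured 8.20, 9.72 and 6.87 RPKM in transgenic 1 to 3, 6.26, 9.10 and 8.92 in DKO LXR 1 to 3 and 6.93, 8.47 and 10.5 in WT 1 to 3. The groups overlapped in full and the differences were -0.05 ± 0.18 in transgenic and -0.08 ± 0.18 in DKO LXR libraries against WT. No change of Cycs was detectable against a spread of this size.

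Complex IV, cytochrome c oxidase, had the highest share of falling members before coding length was taken into account. Of 17 tested, 9 fell in DKO LXR (52.9%) and 6 in transgenic libraries (35.3%) against WT, none rose, and the medians were -0.42 in DKO LXR and -0.35 in transgenic libraries. All 17 had a negative fold change in DKO LXR against WT. Its members were the shortest, with a median coding length of 259.5 bases, against 333 for complex III and 444 for complex I. With the trend of other protein-coding genes on coding length removed, Cox6c was the lone complex IV member called in DKO LXR against WT. Ndufa3, Ndufa5, Ndufa12, Ndufa13 and Ndufs5 of complex I still passed there. In transgenic against WT, Cox5a and Cox6c were the complex IV members called. The highest share was thus not kept. Every nuclear subunit of this complex lies outside the catalytic core. Summed over complex IV, transgenic libraries held 753.4 to 862.3 RPKM, DKO LXR libraries 681.8 to 804.1 RPKM and WT libraries 924.1 to 1104.6 RPKM.

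Cox6a1, the member of complex IV with the highest mean, measured 161, 149 and 155 RPKM in transgenic 1 to 3, 179.7, 144 and 133 in DKO LXR 1 to 3 and 214, 175 and 201 in WT 1 to 3. Transgenic libraries lay below WT, whereas DKO LXR 1 overlapped with WT (-0.38 ± 0.12, adjusted p = 0.0897 for DKO LXR minus WT). Cox4i1, the largest nuclear-encoded subunit of the enzyme, measured 176, 156 and 167 RPKM in transgenic 1 to 3, 159, 153 and 132 in DKO LXR 1 to 3 and 175, 162 and 211 in WT 1 to 3. It did not pass in DKO LXR (-0.30 ± 0.12, adjusted p = 0.149) although every DKO LXR library lay below every WT library. Cox5a, its partner on the matrix side, measured 14.1, 14.0 and 13.9 RPKM in transgenic 1 to 3, 16.5, 14.1 and 13.0 in DKO LXR 1 to 3 and 19.1, 18.2 and 21.8 in WT 1 to 3. Both knockout genotypes lay below WT. Cox5a fell in transgenic (-0.46 ± 0.10, adjusted p = 0.0258) and DKO LXR (-0.42 ± 0.10, adjusted p = 0.0365) libraries, but the DKO LXR call was lost in 8 of 9 omissions (adjusted p up to 0.128) and the transgenic call in 4 (up to 0.0826).

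Cox6c, a small membrane subunit, measured 15.5, 13.6 and 14.4 RPKM in transgenic 1 to 3, 13.3, 13.5 and 13.1 in DKO LXR 1 to 3 and 19.7, 19.5 and 23.5 in WT 1 to 3. The 3 groups were separate, with WT well above both knockout genotypes. Cox6c fell in transgenic (-0.50 ± 0.09, adjusted p = 0.0133) and DKO LXR (-0.61 ± 0.09, adjusted p = 0.00553) libraries against WT. The transgenic call was lost without transgenic 2 or transgenic 3 (adjusted p up to 0.0521). Cox7c, one of the smallest subunits, measured 18.0, 14.3 and 12.7 RPKM in transgenic 1 to 3, 11.9, 12.2 and 13.6 in DKO LXR 1 to 3 and 25.8, 28.9 and 20.7 in WT 1 to 3. WT 3 was the lowest WT library here, unlike for most members, and still lay above every knockout library. Cox7c fell in transgenic (-0.71 ± 0.15, adjusted p = 0.0211) and DKO LXR (-0.94 ± 0.15, adjusted p = 0.007) libraries against WT, and the transgenic call was lost in 4 omissions (adjusted p up to 0.0761). The other complex IV subunits that fell in DKO LXR were Cox5b, Cox6b1, Cox7a2 and Cox8a with the copy Cox6c2, between -0.61 (Cox6c2) and -0.42 (Cox5b).

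Tissue-restricted forms of complex IV subunits were low beside their wide forms, on the scale of RPKM level per length. Cox4i2, a form known from lung and tied to oxygen sensing, measured 2.57, 1.22 and 2.47 RPKM in transgenic 1 to 3, 3.21, 2.09 and 1.77 in DKO LXR 1 to 3 and 2.80, 3.22 and 1.32 in WT 1 to 3. This was 0.626% to 2.02% of Cox4i1. Cox7a1, a form of heart and muscle, measured 1.57, 1.26 and 1.16 RPKM in transgenic 1 to 3, 1.20, 0.838 and 1.57 in DKO LXR 1 to 3 and 2.08, 2.12 and 2.27 in WT 1 to 3, or 2.13% to 4.41% of Cox7a2. It rested on 15 to 57 reads and fell in DKO LXR (-0.53 ± 0.14, adjusted p = 0.0488), a call lost in all 9 omissions of 1 library (adjusted p up to 0.139). Cox6b2, known from testis, measured 0.526, 0.726 and 0.559 RPKM in transgenic 1 to 3, 1.03, 0.405 and 0.314 in DKO LXR 1 to 3 and 1.54, 0.926 and 1.17 in WT 1 to 3. It rested on 12 to 75 reads and did not pass (-0.50 ± 0.19, adjusted p = 0.131).

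Ndufa4l2, a hypoxia-responsive relative of Ndufa4, was the most abundant of these forms and measured 11.3, 5.41 and 7.27 RPKM in transgenic 1 to 3, 6.42, 6.77 and 6.72 in DKO LXR 1 to 3 and 9.23, 11.6 and 3.03 in WT 1 to 3. It was highest in WT 2 and transgenic 1 and lowest in WT 3, so libraries of 1 genotype differed more than genotypes did (-0.07 ± 0.39, adjusted p = 0.935 for DKO LXR minus WT). Its level was 6.65% to 30.1% of Ndufa4. Cox6a2, a heart and muscle form, measured 0 to 0.217 RPKM in transgenic, 0 to 0.0852 RPKM in DKO LXR and 0 to 0.219 RPKM in WT libraries. Cox7b2, known from testis, measured 0, 0 and 0.272 RPKM in transgenic 1 to 3, 0.176, 0 and 0 in DKO LXR 1 to 3 and 0.168, 0 and 0.0392 in WT 1 to 3. These are 0 to 7 reads for Cox6a2 and 0 to 5 for Cox7b2, so no difference was detectable at this depth. Cox8b and Cox8c are listed at 0 in all 9 libraries.

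Complex V, the ATP synthase, held the member with the largest fall in DKO LXR against WT, Atp5k, while its catalytic alpha and beta genes did not pass. Of 17 members tested, 5 fell in DKO LXR against WT (29.4%, against 7.12% of all genes). In transgenic against WT 4 fell (23.5%, against 6.72%), and none rose in either comparison. The medians were -0.15 in DKO LXR and -0.09 in transgenic libraries. Its sum, carried by the alpha and beta genes, overlapped between groups, at 1117.3 to 1137.2 RPKM in transgenic, 1064.4 to 1183.7 RPKM in DKO LXR and 1080.1 to 1209.7 RPKM in WT libraries. Atp5b, the catalytic beta subunit and the most abundant member of all, measured 375, 403 and 369 RPKM in transgenic 1 to 3, 405, 384 and 382 in DKO LXR 1 to 3 and 358, 384 and 392 in WT 1 to 3. Its difference was 0.05 ± 0.08, adjusted p = 0.774 in DKO LXR against WT. Atp5a1, the alpha subunit, measured 251, 256 and 265 RPKM in transgenic 1 to 3, 283, 231 and 241 in DKO LXR 1 to 3 and 234, 242 and 259 in WT 1 to 3. Both head subunits overlapped between all groups (0.03 ± 0.10, adjusted p = 0.87 for Atp5a1 in DKO LXR against WT). Atp5e, the small epsilon subunit of the central stalk, was the head gene that fell in DKO LXR (-0.72 ± 0.17, adjusted p = 0.0347), and this call was lost in 7 of 9 omissions (adjusted p up to 0.127).

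Atp5k (mm10 chromosome 5, 108433244 to 108434448) encodes the e subunit at which synthase dimers form and measured 3.92, 2.98 and 3.35 RPKM in transgenic 1 to 3, 3.21, 1.94 and 1.83 in DKO LXR 1 to 3 and 7.04, 6.40 and 7.87 in WT 1 to 3. Every WT library lay well above every knockout library. Atp5k fell in transgenic (-0.88 ± 0.17, adjusted p = 0.0146) and DKO LXR (-1.30 ± 0.17, adjusted p = 0.00276) libraries against WT. The gene is lowly counted, at 39 to 228 reads per library, and the transgenic call was lost without transgenic 2 or transgenic 3 (adjusted p up to 0.0552). Atp5j2, the f subunit of the membrane part, measured 6.44, 5.63 and 6.92 RPKM in transgenic 1 to 3, 6.41, 6.51 and 5.32 in DKO LXR 1 to 3 and 9.81, 9.71 and 10.7 in WT 1 to 3. All knockout libraries lay below all WT libraries. Atp5j2 fell in transgenic (-0.60 ± 0.10, adjusted p = 0.0113) and DKO LXR (-0.65 ± 0.10, adjusted p = 0.00737) libraries, and both calls held in every omission of 1 library.

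Atp5mpl, a small membrane protein of the synthase, measured 17.0, 14.8 and 15.2 RPKM in transgenic 1 to 3, 15.6, 14.9 and 13.8 in DKO LXR 1 to 3 and 21.6, 21.1 and 22.7 in WT 1 to 3. The WT libraries again lay above the others without overlap. Atp5mpl fell in transgenic (-0.45 ± 0.08, adjusted p = 0.0128) and DKO LXR (-0.53 ± 0.08, adjusted p = 0.00621) libraries, and the transgenic call was lost without transgenic 2 or transgenic 3 (adjusted p up to 0.0525). Atp5j, a coupling factor of the peripheral stalk, also fell in transgenic (-0.45 ± 0.09, adjusted p = 0.0165) and DKO LXR (-0.45 ± 0.09, adjusted p = 0.0161) libraries. Its transgenic call was lost without transgenic 2 or transgenic 3 (adjusted p up to 0.0632), and its DKO LXR call without DKO LXR 2 or DKO LXR 3 (up to 0.0693). The other genes of the stalk and the rotor ring did not pass. Atp5f1 gave 0.21 ± 0.14, adjusted p = 0.374, Atp5h -0.30 ± 0.11, adjusted p = 0.123 and Atp5o -0.15 ± 0.14, adjusted p = 0.555 in DKO LXR against WT, and the ring genes Atp5g1, Atp5g2 and Atp5g3 gave -0.34 ± 0.14, -0.13 ± 0.09 and -0.03 ± 0.09, none of them past the threshold. Every DKO LXR library of Atp5h and Atp5g1 lay below every WT library, and the other 4 overlapped with WT.

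**Figure D2:**
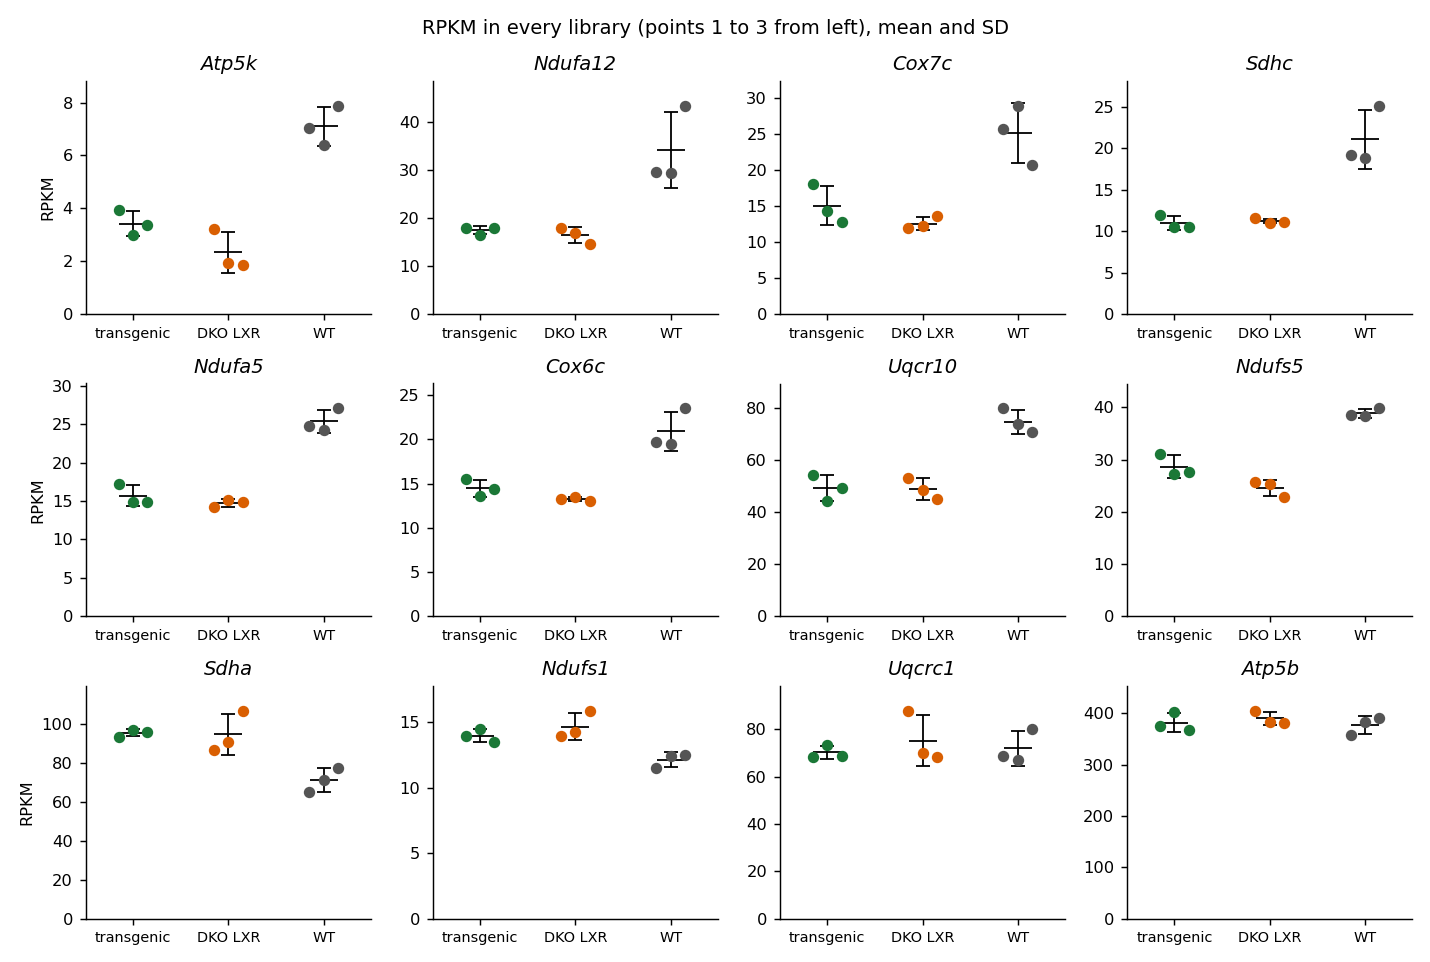
RPKM of 12 members in each library, with points for libraries 1 to 3 of transgenic, DKO LXR and WT from left to right, and bars for the mean and SD (n = 3). The 8 small subunit genes of the upper rows have every knockout library below every WT library, Sdha and Ndufs1 have them above, and Uqcrc1 and Atp5b overlap.

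Members differed in coding length, and the fold changes followed it. Members of up to 300 coding bases had a median of -0.57 in DKO LXR against WT, and 16 of 22 fell. For those of 301 to 450 bases the median was -0.38 and 11 of 25 fell. It was -0.16 for 451 to 600 bases (15 members), -0.04 for 601 to 900 bases (9), -0.00 for 901 to 1500 bases (8) and 0.15 above 1500 bases (4). The Spearman correlation of fold change and coding length over 83 members, given as a description of genes that share the same libraries, was 0.741 in DKO LXR against WT, 0.644 in transgenic against WT and -0.523 in transgenic against DKO LXR.

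Other protein-coding genes showed the same order with smaller values. Of 245 others with up to 300 coding bases, 28.2% fell in DKO LXR against WT and the median was -0.31. Of 610 with 301 to 450 bases, 15.1% fell and the median was -0.18. Above 1500 bases 2.59% fell and the median was 0.09. Their Spearman correlation over 11699 genes was 0.274 in DKO LXR against WT, 0.209 in transgenic against WT and -0.056 in transgenic against DKO LXR. Coding length is tied to class here, because the median was 870 bases for core members and 354 bases for accessory members. Within 451 to 900 bases, 1 of 12 accessory members fell in DKO LXR against WT with a median of -0.15, and 1 of 10 core members with a median of -0.10. Of 41 accessory members up to 450 bases 25 fell, while core members of that length number 1 (Atp5e, which fell). Above 900 bases none of 3 accessory members fell, with a median of -0.12, and none of 9 core members fell, with a median of 0.05. The class difference at matched length was not tested.

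The trend of other protein-coding genes on coding length was then removed, an alternative chosen after seeing the data. Of the members with a coding length (83 tested), 30 had passed in DKO LXR against WT. Refitting only genes with a coding length gave 27, and removing the trend in that refit gave 9, with a median of -0.10. The shares of all genes that passed in these refits are not given here. The 9 were Atp5k, Ndufa12, Sdhc, Ndufa3, Ndufa5, Ndufa13, Ndufs5, Atp5j2 and Cox6c. Atp5k gave -0.95 ± 0.14 (adjusted p = 0.00763), Ndufa12 -0.82 ± 0.11 (adjusted p = 0.00507) and Sdhc -0.70 ± 0.08 (adjusted p = 0.0026) relative to genes of their length. Sdhc is longer than most falling members, at 507 coding bases. Sdha kept a positive value but did not pass (0.37 ± 0.10, adjusted p = 0.0661). In transgenic against WT the matching counts were 23, 22 and 13, with a median of -0.07 after the trend was removed. Of these 13, 12 were among the 22 of the refit. The thirteenth was Ndufa6, which was higher than genes of its length (0.33 ± 0.07, adjusted p = 0.0276).

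**Figure D3:**
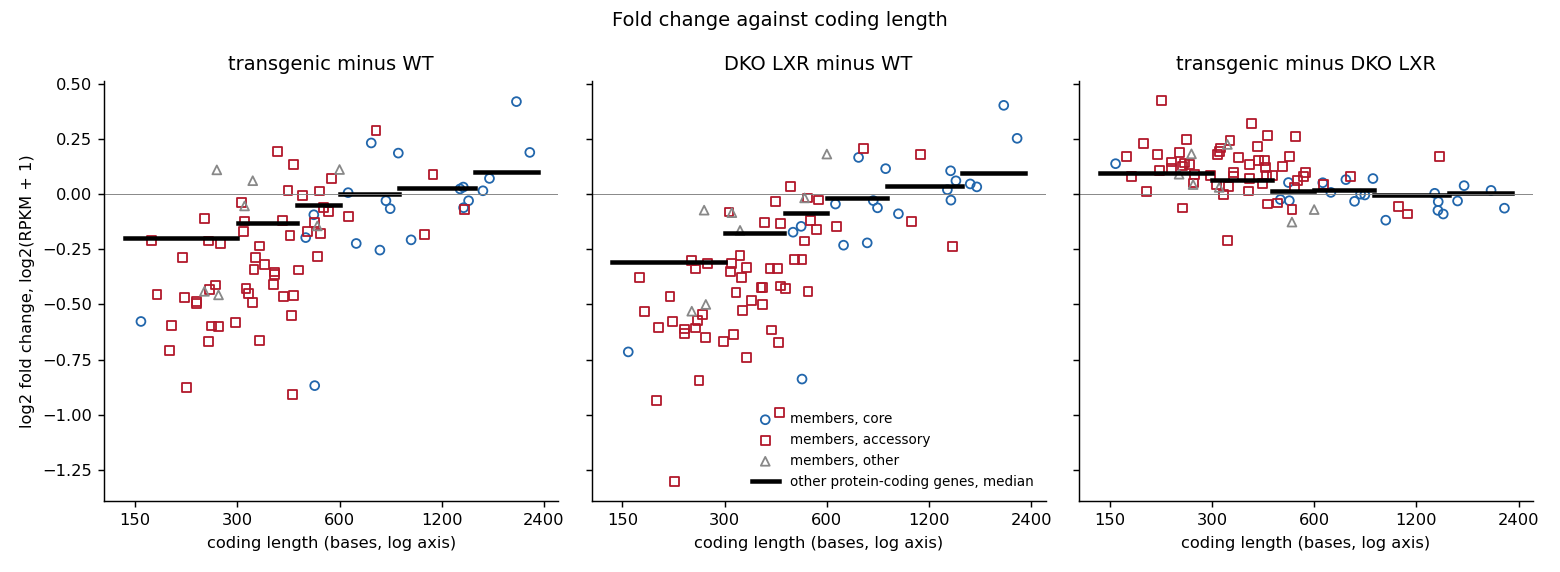
Log2 fold change of members on the log2(RPKM + 1) scale against coding length in bases (log axis), for transgenic minus WT, DKO LXR minus WT and transgenic minus DKO LXR; black bars give the median of other protein-coding genes in each length class. Members of up to 300 bases lie lowest in both comparisons with WT (median -0.57 in DKO LXR minus WT, against -0.31 for other genes), and the slope turns the other way between the knockout genotypes.

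Libraries of 1 genotype differed in the level of the whole set. WT 3 was the highest library for 58 of the 87 members, and DKO LXR 3 was the lowest for 47. Members deviated from their 9-library mean by a median of 0.34 in WT 3, 0.12 in WT 1 and 0.06 in WT 2, and by -0.23 in DKO LXR 3. Transgenic 1 to 3 gave 0.01, -0.14 and -0.04. Without WT 3, 23 members fell and 4 rose in transgenic against WT with a median of -0.12, and 27 fell and 2 rose in DKO LXR against WT with a median of -0.21. Without DKO LXR 3, 15 fell and none rose in DKO LXR against WT, with a median of -0.28. Without transgenic 2, 7 fell in transgenic against WT, and without transgenic 3, 8. The share of all genes that passed in each refit is not given here, so these counts cannot be set against a background. WT 3 is the library with the highest red cell marker sum, and it stood apart from WT 1 and WT 2 in other markers too. Oviduct epithelium markers summed to 2139.5 RPKM in WT 3, 448.4 in WT 1 and 395.1 in WT 2. Macrophage markers summed to 1270.6, 543.5 and 582.5 RPKM in the same order, and smooth muscle markers to 78.0, 9.3 and 7.1. Its granulosa and cumulus sum, 2791.6 RPKM, was the lowest of WT. The part of RNA from these cells in its values was not tested.

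Of the 33 calls in DKO LXR against WT, 15 held in every omission of 1 library, and of the 26 in transgenic against WT, 7 did. Without both libraries with oocyte RNA, WT 1 and DKO LXR 1, 21 members fell in DKO LXR against WT and 14 in transgenic against WT. The share of all genes that passed in that refit is not given here either. Oviduct epithelium markers (11 genes) summed to 1884.6 to 2503.9 RPKM in transgenic, 596.8 to 1136.6 RPKM in DKO LXR and 395.1 to 2139.5 RPKM in WT libraries. Macrophage markers (9 genes) summed to 403.3 to 588.2 RPKM in transgenic, 663.8 to 1279.9 RPKM in DKO LXR and 543.5 to 1270.6 RPKM in WT libraries. The granulosa and cumulus sums given above lay below WT without overlap in transgenic libraries, while those of DKO LXR overlapped with WT. In transgenic libraries 7 of 17 tested genes of that list fell against WT, and in DKO LXR libraries 6 of 17, none rising. Of 9 macrophage markers, 4 fell in transgenic against WT, and 1 was lower in transgenic than in DKO LXR (0.0609% of all genes were). Of 11 oviduct markers, 2 rose in transgenic against WT (5.15% of all genes did). No marker of these 2 lists passed in DKO LXR against WT. Of all genes 6.72% fell in transgenic and 7.12% in DKO LXR libraries, and of the subunit members 28.7% and 36.8%. The part of these cell mixtures in the subunit values was not tested.

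**Figure D4:**
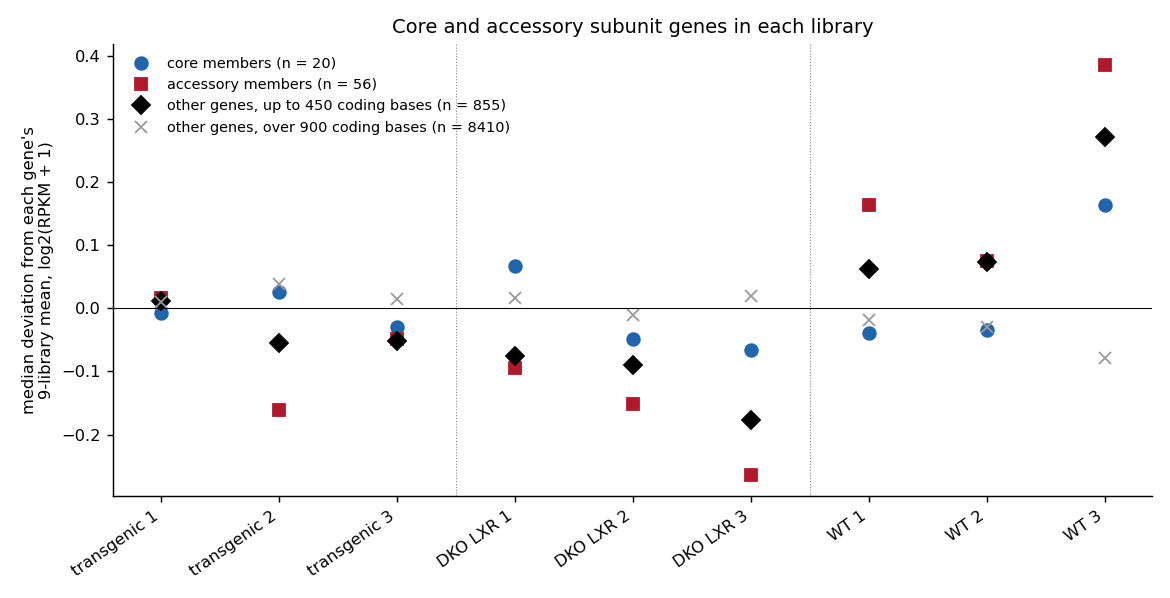
Median deviation of core members (n = 20), accessory members (n = 56) and other genes of short (n = 855) or long (n = 8410) coding length from each gene's 9-library mean, on the log2(RPKM + 1) scale, in transgenic, DKO LXR and WT libraries. Accessory members are highest in WT 3 (0.39) and lowest in DKO LXR 3 (-0.26), and short genes outside the set have the same highest and lowest libraries (0.27 and -0.18).

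Other genes of the pathway were counted beside the subunits. Of 45 assembly factors tested, 5 fell and 1 rose in DKO LXR against WT, with a median of -0.05. This share of 13.3% lies near the 10.6% of all genes that passed. In transgenic against WT 3 fell and 1 rose (8.89%, against 11.9% of all genes). Uqcc2, needed to make cytochrome b for complex III, averaged 17.3 ± 1.13 RPKM in transgenic, 15.7 ± 1.65 RPKM in DKO LXR and 26.8 ± 1.60 RPKM in WT libraries (SD, n = 3). It fell in both knockout genotypes (transgenic -0.60 ± 0.09, adjusted p = 0.00713; DKO LXR -0.74 ± 0.09, adjusted p = 0.00283). Coa5, a complex IV assembly factor, rose instead: it averaged 24.8 ± 0.984 RPKM in transgenic, 27.0 ± 4.31 RPKM in DKO LXR and 16.4 ± 1.46 RPKM in WT libraries (transgenic 0.57 ± 0.12, adjusted p = 0.0215; DKO LXR 0.67 ± 0.12, adjusted p = 0.011). With 222 coding bases, Coa5 is as short as the subunits that fell. The assembly factors that fell in DKO LXR were short too: Cox17 (189 coding bases), Ndufaf8 (222), Pet100 (228), Uqcc2 (408) and Ndufaf2 (504). Other short ones, such as Cox14 (171) and Coa4 (261), did not pass. Cox17, the copper chaperone of complex IV, fell in transgenic (-0.42 ± 0.11, adjusted p = 0.0449) and DKO LXR (-0.52 ± 0.11, adjusted p = 0.0233) libraries.

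The lists that follow hold few genes, and their counts are read against the same shares of all genes, 11.9% in transgenic and 10.6% in DKO LXR against WT. Of 23 genes of mitochondrial biogenesis and mitochondrial DNA expression 1 fell in DKO LXR against WT (4.35%), the mitochondrial single-strand binding protein gene Ssbp1 (-0.32 ± 0.08, adjusted p = 0.0426), and none passed in transgenic against WT. Of 14 tricarboxylic acid cycle genes none passed in DKO LXR, with a median of 0.07, and 1 (7.14%), Ogdh, rose in transgenic libraries (0.36 ± 0.10, adjusted p = 0.0433). Of 6 carrier and channel genes 1 (16.7%), the outer membrane channel gene Vdac2, rose in transgenic (0.35 ± 0.07, adjusted p = 0.0203) and DKO LXR (0.28 ± 0.07, adjusted p = 0.0441) libraries against WT. None of 9 genes of uncoupling and other quinone reduction passed in any comparison. Atpif1, the inhibitor of ATP synthase, fell in DKO LXR against WT (-0.47 ± 0.12, adjusted p = 0.0387). No gene of these lists passed between the knockout genotypes.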

How the data were processed

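Gene expression was measured in 9 libraries of mouse corona radiata cells, 3 per genotype, grouped by title. The authors deposited RPKM values, and the number of columns not used was 0. Per the submitters' processing notes, the mm10 build, DESeq2 1.2.8, HTSeq 0.5.4p5, HISAT2 2.1.0 and cutadapt were used, with no roles stated. The sources used here do not give the strand setting, the annotation release or the handling of multi-mapping reads, so genes with near-identical copies are uncertain. With GENCODE M21 summed exon lengths, whole reads (tolerance 0.02) were worked back for 37146 of 37863 genes (98.1%), and for 85 of 92 members. For a gene of 1 kb, 3 reads equal 0.0638 to 0.0965 RPKM, which covers counting error only. Because the summed exon length can exceed the expressed transcript, levels of different genes are approximate.

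The 16422 genes that reached 1 RPKM in 3 or more libraries were fitted as log2(RPKM + 1), by genotype, in R 4.3.3 and limma 3.58.1 with a mean-variance trend and Benjamini-Hochberg adjustment at 0.05; fold changes of low genes are understated. The procedure was tested on simulated data. The members, lists and alternatives were chosen with earlier results of these data known. Named members were those past the threshold (at most 10 per comparison and direction), the highest and most changed member of each complex, preset core subunits and tissue-restricted forms; members named beyond these were chosen after their values were seen, and 1 member under this rule is not reported here. Alternatives were another pseudocount, 2 other filters, quantile and median-of-ratios scaling, a replicate block, 2 genotypes only, no trend, omitted libraries, voom on worked-back reads, and coding length.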

Additional observations from a re-analysis of the deposited data

How the results depend on the processing

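The median fold change of the members kept its sign under every alternative in all 3 comparisons. In DKO LXR against WT the count of members past the threshold was 33; leaving out 1 library in turn gave 15 to 34 (lowest without DKO LXR 3), leaving out both libraries with oocyte RNA 21, and removing the coding length trend 9 with a median of -0.103 (27 with the same genes refitted and the trend kept). In transgenic against WT the count was 26; it was 14 without a filter on low values, 7 to 27 with 1 library left out (lowest without transgenic 2), 14 without both libraries with oocyte RNA, and 13 with a median of -0.073 after removing the length trend (22 with the same genes refitted). The fits on fewer libraries have fewer samples and the unfiltered fit adjusts over 37863 genes. The shares of all genes that passed under these settings are not given here. The cause of the changes was not tested further. Deviations of DKO LXR 1 and WT 1, both with oocyte RNA, correlated at 0.672, but other same-numbered pairs ranged from -0.293 to 0.372, so the shared numbers were not taken as a pairing. A replicate block gave 27 calls in DKO LXR against WT, 0 in transgenic against DKO LXR and 20 in transgenic against WT. The count in transgenic against DKO LXR was 0 under every setting. Low read numbers limit Cox6b2, Cox7a1, Cox4i2 and Atp5k.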
